A study of Mus musculus with 48 samples.

Results

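A set of 6 genes known for their response to microbes at the gut surface, out of 54532 genes in the count table, was followed through the first 4 weeks of life in the mouse small intestine. They are Nos2, Duox2, Duoxa2, Saa1, Saa2 and Saa3. They were chosen by gene symbol, with earlier results of these data known, and all 6 were found under that symbol. The shares of all genes printed beside them are a description for that reason. The study sampled 2 ends of the small intestine, each as a whole-thickness piece of 2 cm: the duodenum directly below the stomach outlet, and the ileum directly above the junction with the caecum. Each region was taken at 8 ages, day 0, 2, 4, 6 and 8 and week 2, 3 and 4 after birth, with 3 numbered samples per region and age. All groups were C57Bl/6J mice from Jackson labs, males and females mixed, with pups of a litter usually spread over 2 or 3 ages. Pups were nursed up to day 21 and given rodent chow afterwards, so every week 4 sample came after the change of diet. The labels call the housing germ-free and also speak of variation in microbial exposure between litters, and whether the animals carried microbes was not tested. No group is labelled as treated, infected or genetically altered.

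The 46 samples used held 16824021 to 65042327 estimated counts, and 3 counts were worth between 0.0537 and 0.200 CPM, the unit of level used throughout, which scales each sample's counts to its library size. The day 6 samples numbered 3 of both regions were left out because their columns appear exchanged between regions. Under their labels the duodenum sample had 0.832 CPM of Nos2 and the ileum sample had none, the opposite of the other day 6 samples. A pair of week 4 libraries stood apart in some of the genes that mark position along the gut. The week 4 duodenum sample numbered 2 had 1.81 CPM of Pdx1, a transcription factor of the duodenum, against 20.7 and 17.0 CPM in numbers 1 and 3. Its Gata4, a gene higher in duodenum than in ileum at week 3, did not stand apart, at 150 CPM against 135 and 166 CPM. The week 4 ileum sample numbered 1 had 41.7 CPM of Fabp6, the ileal bile acid binding protein, against 1256 and 1936 CPM in numbers 2 and 3, and 10.4 CPM of Fgf15 against 100.3 and 84.9 CPM. Its Gata4 was 85.9 CPM against 21.1 and 22.3 CPM in numbers 2 and 3. Every week 4 sample expressed Xist without Ddx3y, the female pattern, whereas week 3 samples 2 and 3 of both regions had the male pattern, so sex and age are partly confounded between weeks 3 and 4. Results at week 4 are therefore given sample by sample. Because whole tissue was sequenced, fewer cells of a type and less RNA per cell cannot be told apart. Nothing in the labels says that samples of one group came from separate litters, so p-values measure the spread between these samples only.

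The 6 genes belong to defences that the intestinal epithelium raises at its surface. Nos2 encodes inducible nitric oxide synthase, which makes nitric oxide from arginine and is switched on by cytokines and bacterial products. Duox2 encodes a dual oxidase that releases hydrogen peroxide at the apical membrane of epithelial cells, and Duoxa2 encodes the maturation factor that Duox2 needs to leave the endoplasmic reticulum and work. Saa1, Saa2 and Saa3 encode serum amyloid A proteins, small lipid-binding acute phase proteins. Saa1 and Saa2 are made mainly by hepatocytes and also by the ileal epithelium, where attached bacteria and interleukin 22 are known inducers, while Saa3 is also made by macrophages and fat cells.

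Nos2 (ENSMUSG00000020826) lies on chromosome 11 (chr11:78920787-78960254, plus strand, GENCODE M21 on GRCm38). Duox2 (ENSMUSG00000068452, chr2:122279247-122298449, minus strand) and Duoxa2 (ENSMUSG00000027225, chr2:122298900-122302885, plus strand) are divergent neighbours whose annotated starts are 451 bases apart. The last 695 bases of Duoxa2 overlap Duoxa1, the maturation factor gene of Duox1, on the opposite strand. Of the 31-base words in the Duoxa2 transcript, 41.8% also occur in Duoxa1 transcripts on the opposite strand, and the sources used here do not state whether counting used strand. Whether reads from that overlap were told apart between the 2 genes is therefore not known. Saa3 (ENSMUSG00000040026, chr7:46711998-46715700, minus strand), Saa1 (ENSMUSG00000074115, chr7:46740497-46742980, minus strand) and Saa2 (ENSMUSG00000057465, chr7:46751790-46754313, plus strand) sit within 42.3 kb. The transcripts Saa1-201 and Saa2-201 were identical at 93.9% of aligned positions, and 26.8% of the 31-base words of Saa1 also occur in Saa2. Reads from such stretches were divided between the 2 genes by the authors' estimate, which makes the split between Saa1 and Saa2 less certain than their sum.

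The promoters are printed because Duox2 and Duoxa2 moved together and share the space between them, and because Saa1 and Saa2 reached very different levels from nearly identical upstream sequence. Promoter windows were found for 5 of the 6 genes, Nos2 being the exception. Each line gives the 250 bases before the annotated RefSeq start (GRCm38.p6), 5′ to 3′ on the gene's own strand. Capitals mark matches to a motif on either strand. The motifs, chosen with the sequences in view, were the kappa B consensus, the STAT motif TTCNNNGAA, the C/EBP motif TTGCNNAA and the TATA box TATAAA. The kappa B consensus was taken as GG, a pair of purines, a pair of any bases, a pair of pyrimidines and CC.
Duox2: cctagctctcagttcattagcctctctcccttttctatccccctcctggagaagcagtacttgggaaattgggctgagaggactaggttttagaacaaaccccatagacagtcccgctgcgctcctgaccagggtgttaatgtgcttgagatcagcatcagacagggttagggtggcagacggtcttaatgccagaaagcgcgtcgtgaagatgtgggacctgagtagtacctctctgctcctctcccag
Duoxa2: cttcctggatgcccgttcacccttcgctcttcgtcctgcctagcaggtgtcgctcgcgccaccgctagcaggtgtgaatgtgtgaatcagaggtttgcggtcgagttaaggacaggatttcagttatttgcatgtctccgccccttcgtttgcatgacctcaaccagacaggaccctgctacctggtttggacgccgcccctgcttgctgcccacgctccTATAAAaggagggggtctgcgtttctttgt
Saa1: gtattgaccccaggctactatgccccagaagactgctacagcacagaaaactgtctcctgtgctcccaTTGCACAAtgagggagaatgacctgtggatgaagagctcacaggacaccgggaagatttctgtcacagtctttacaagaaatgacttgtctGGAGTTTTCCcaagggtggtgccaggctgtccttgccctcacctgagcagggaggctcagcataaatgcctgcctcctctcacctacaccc
Saa2: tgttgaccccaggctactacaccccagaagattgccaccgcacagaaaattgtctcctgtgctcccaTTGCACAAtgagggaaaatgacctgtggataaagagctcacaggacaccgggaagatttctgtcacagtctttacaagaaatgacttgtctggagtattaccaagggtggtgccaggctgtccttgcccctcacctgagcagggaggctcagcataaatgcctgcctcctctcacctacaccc
Saa3: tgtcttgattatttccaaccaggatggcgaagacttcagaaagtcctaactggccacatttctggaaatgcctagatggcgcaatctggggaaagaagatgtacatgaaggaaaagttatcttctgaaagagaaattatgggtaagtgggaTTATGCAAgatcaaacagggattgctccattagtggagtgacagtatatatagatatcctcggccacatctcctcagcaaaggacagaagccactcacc
These windows are chr2:122298228-122298477 (Duox2), chr2:122298650-122298899 (Duoxa2), chr7:46742981-46743230 (Saa1), chr7:46751583-46751832 (Saa2) and chr7:46715677-46715926 (Saa3), and 172 bases separate those of Duox2 and Duoxa2. The RefSeq start of Duox2 differs from the GENCODE start given above. Most of the Duox2 window therefore lies inside the GENCODE bounds of Duox2, which end at chr2:122298449, and it covers little of the space between the 2 genes. The Saa2 and Saa3 windows also run into their GENCODE bounds, by fewer bases. The Duoxa2 window held a TATA box starting 30 bases before the start, and the Duox2 window held none of the 4 motifs. The Saa1 window held the C/EBP motif as TTGCACAA and the kappa B consensus as GGAGTTTTCC. The Saa2 window matched Saa1 at 94.8% of aligned positions and held the same C/EBP match. At the place of the Saa1 kappa B match, Saa2 carried T6A and C9A, counted from 1 at the first base of the match, and did not meet the consensus. Saa3, with 52.2% of aligned positions identical to Saa1, held a C/EBP match on the other strand. No window held the STAT motif. Among 32536 RefSeq windows of the same length, 9.59% held the kappa B consensus, 9.57% the C/EBP motif, 7.04% the STAT motif and 12.3% the TATA box. A match is a description of letters only and does not show a binding site.

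In the ileum all 6 genes rose between week 3 and week 4. In the duodenum 4 of them rose over the same step: Nos2, Duox2, Duoxa2 and Saa1. The rises were large, from 5.81-fold for Saa3 to 71.7-fold for Duoxa2 in group means of the ileum, and beyond that for Saa1. Among all 21986 genes tested, 8.26% rose over this step in the ileum and 7.75% in the duodenum (edgeR, adjusted p under 0.05). With Saa2 the ileal count holds a gene that had to differ, since it passed the filter on low counts only through the week 4 ileum. Before week 3, none of the 6 genes passed the test over any of the 3 steps examined in either region, day 0 to day 2, day 2 to day 8 and day 8 to week 2. The shares of all genes called over those steps were 6.8%, 34% and 15.7% in the duodenum and 5.2%, 9.79% and 6.64% in the ileum. At an unadjusted p under 0.05, Saa3 alone passed in each duodenal step, in both directions, and Duox2 alone from day 2 to day 8 in the ileum.

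**Figure D1:**
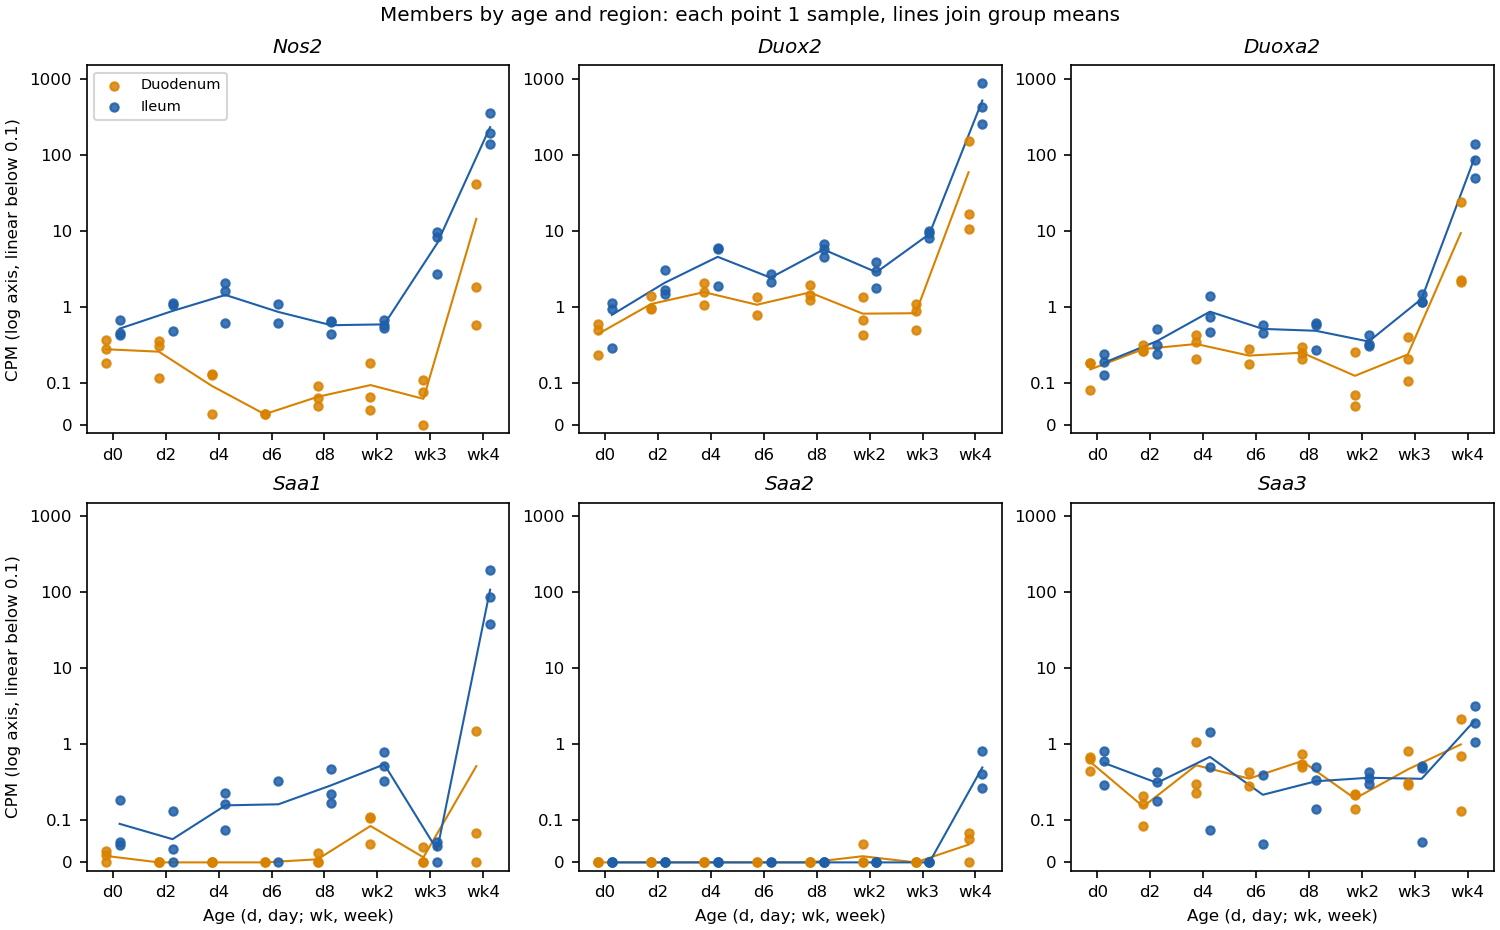
CPM of the 6 genes (vertical axis, log scale, linear below 0.1) against age (horizontal axis) in duodenum and ileum; each point is 1 sample and lines join group means, with 2 samples per region at day 6 and 3 elsewhere. Nos2, Duox2, Duoxa2 and Saa1 stay at or below 9.94 CPM in every sample up to week 3 and reach 38.3 CPM or more in every ileum sample at week 4.

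Nos2, the nitric oxide synthase, was at 194, 357 and 139 CPM in the week 4 ileum samples 1, 2 and 3. At week 3 the same numbers stood at 2.72, 9.51 and 8.20 CPM, and at week 2 at 0.571, 0.657 and 0.523 CPM. Neither step overlapped: the lowest week 3 sample lay above the highest week 2 sample, and the lowest week 4 sample above the highest week 3 sample. The mean rose 33.8-fold from week 3 to week 4, with a fitted log2 fold change of 5.09 ± 0.81 (SE, adjusted p = 2.23e-05), after a rise of 3.52 ± 0.85 from week 2 to week 3 (adjusted p = 0.00193). In means, that earlier rise was 11.7-fold for Nos2, against 3.19-fold for Duox2 and 3.64-fold for Duoxa2.

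In the duodenum Nos2 was close to the counting limit before week 4. Its 3 week 3 samples held 6, 0 and 3 counts, or 0.107, 0 and 0.0770 CPM. At week 4 they held 22, 1457 and 51 counts, or 0.574, 40.5 and 1.80 CPM. Number 2, the sample with low Pdx1, was far above the other 2, and yet all 3 were above every week 3 sample. The log2 fold change was 7.57 ± 1.12 (SE, adjusted p = 1.14e-05), and over all alternatives it ran from 3.95, with number 2 left out, to 8.23.

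Duox2, the peroxide-producing oxidase, reached 425, 866 and 254 CPM in the week 4 ileum samples 1, 2 and 3. Its week 3 values were 9.24, 7.92 and 9.94 CPM, a narrow range far below any week 4 sample. The mean rose 57.0-fold (log2 fold change 5.83 ± 0.71, adjusted p = 2.96e-07). In the duodenum the week 4 samples had 10.4, 149 and 16.5 CPM and the week 3 samples 1.09, 0.488 and 0.873 CPM. Again number 2 was the high one, and again no sample overlapped between the ages. The duodenal log2 fold change was 6.10 ± 0.75 (adjusted p = 5.25e-07) with number 2 and at its lowest 3.99 over the alternatives. When the model held only the 2 duodenal groups compared, where the spread of number 2 weighs more, the adjusted p was 0.0629 for Duox2, 0.0706 for Duoxa2 and 0.119 for Nos2.

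Duoxa2, the maturation factor of Duox2, followed the same order of samples. In the ileum it was at 83.7, 139 and 49.4 CPM at week 4 and at 1.48, 1.16 and 1.16 CPM at week 3, a 71.7-fold rise of the mean (log2 fold change 6.15 ± 0.64, adjusted p = 7.18e-09). In the duodenum it was at 2.09, 23.5 and 2.23 CPM at week 4 and at 0.394, 0.105 and 0.205 CPM at week 3 (log2 fold change 5.17 ± 0.66, adjusted p = 4.8e-07), and without number 2 its duodenal log2 fold change was 3.08, still called. Within each region the week 4 samples stood in the same order for Duox2 and Duoxa2, number 2 first. The ratio of Duox2 to Duoxa2 counts was 5.07 to 6.24 in the week 4 ileum samples and 4.96 to 7.41 in the week 4 duodenum samples. It varied more where counts were few, from 1.20 at its lowest in a day 0 ileum sample to 21.4 at its highest in a day 8 ileum sample. Over the 16 group means the 2 genes had a Pearson correlation of 0.98 on log2(CPM + 0.1), a description across groups that share the same libraries.

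**Figure D2:**
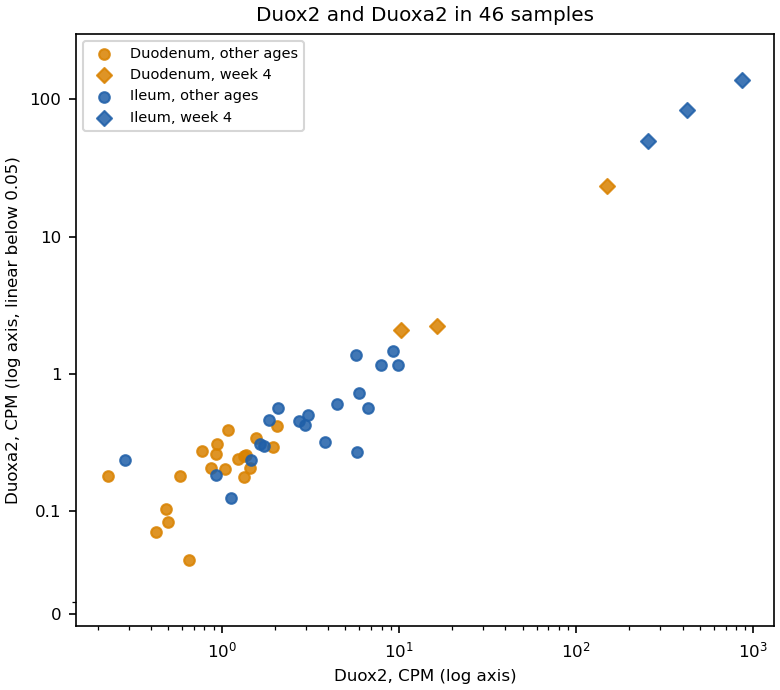
Duoxa2 CPM (vertical axis, log scale, linear below 0.05) against Duox2 CPM (horizontal axis, log scale) in the 46 samples, coloured by region, with week 4 samples as diamonds. The 4 highest points are the 3 week 4 ileum samples and the week 4 duodenum sample numbered 2, whose Duox2 was 149 CPM.

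Saa1 showed the largest change of the 6 genes in the ileum. It was at 38.3, 199 and 86.4 CPM in the week 4 ileum samples, from 657, 6405 and 1294 counts. In the week 3 ileum it was almost absent, with 1, 1 and 0 counts. The pooled ratio of week 4 to week 3 was 4314, with a counting interval (95%, exact) from 1194 to 35630, which covers counting error only. The fitted log2 fold change was 11.64 ± 1.11 (adjusted p = 7.81e-09). Before that step Saa1 had been low but present in the ileum, at 0.516, 0.784 and 0.327 CPM at week 2, and it fell from week 2 to week 3 by 4.05 on the log2 scale (SE 1.42, adjusted p = 0.0335). That fall rests on 66 counts against 2.

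In the duodenum Saa1 stayed near the counting limit in all samples but one. At week 4 samples 1, 2 and 3 held 0, 53 and 2 counts, or 0, 1.47 and 0.0707 CPM, against 2, 0 and 0 counts at week 3. The log2 fold change of 4.75 ± 1.34 passed the test (adjusted p = 0.0172), but without sample 2 it was 0.81 (adjusted p = 0.854). The duodenal rise of Saa1 thus rests on the sample that stood apart in Pdx1. That sample had 0.278 CPM of Fabp6, within the 0.104 to 0.672 CPM range of the week 4 duodenum.

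Saa2, next to Saa1 and nearly identical to it in sequence, had few counts even at its highest. The week 4 ileum samples held 7, 26 and 4 counts, or 0.408, 0.807 and 0.267 CPM. Outside that group it had 2 counts in each of 3 samples, the duodenum samples 2 and 3 of week 4 and sample 3 of week 2, and 0 in all others. Its week 4 ileum level was at least 12.7-fold above week 3, taking 3 counts over the week 3 group as the floor. The edgeR fit called it (adjusted p = 0.0143), and DESeq2 gave it no adjusted p in that comparison. Of the counts assigned to Saa1 and Saa2 together, Saa1 took 98.9%, 99.6% and 99.7% in the 3 week 4 ileum samples. Adding the 2 genes together changed no call of Saa1.

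Saa3 behaved unlike the other 5. It was detected at all ages in both regions, between 0.0434 and 1.46 CPM before week 4, with the regions overlapping except at day 8, when every duodenum sample was higher, and at week 2, when every ileum sample was higher. At week 4 it was at 3.15, 1.89 and 1.07 CPM in the ileum against 0.520, 0.483 and 0.0482 CPM at week 3. The samples did not overlap, and the log2 fold change was 2.51 ± 0.77 (adjusted p = 0.0206). This call ended without week 3 ileum sample 3 (adjusted p = 0.0795) or without week 4 ileum sample 1 (adjusted p = 0.0850). In the duodenum its week 4 samples were at 0.130, 2.14 and 0.707 CPM against 0.287, 0.802 and 0.308 CPM, overlapping, and did not pass the test (log2 fold change 1.13 ± 0.72, adjusted p = 0.326). Saa3 was highest in ileum sample 1, whereas the other 5 genes were highest in ileum sample 2.

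**Figure D3:**
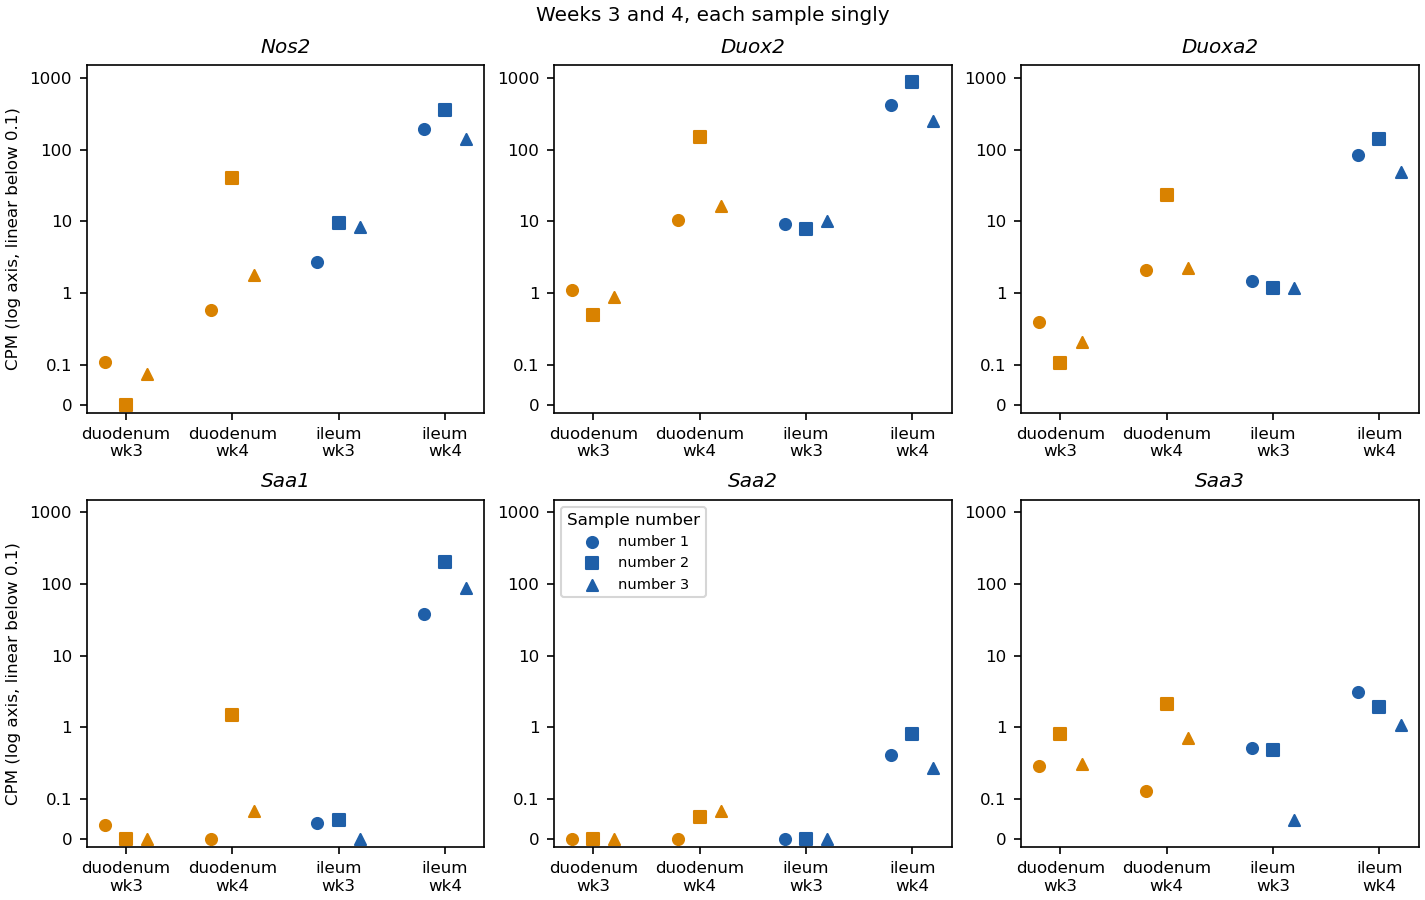
CPM of each gene (vertical axis, log scale, linear below 0.1) in every week 3 and week 4 sample, by region (horizontal axis); marker shape gives the sample number. In the ileum each gene's lowest week 4 sample lies above its highest week 3 sample, and duodenum sample 2 is the highest of its group for 5 of the 6 genes, Saa2 having 2 counts in both sample 2 and sample 3.

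The step from week 2 to week 3 in the ileum was smaller and less firm. Nos2, Duox2 and Duoxa2 rose and Saa1 fell, where 12.9% of all genes rose and 13.9% fell. Duox2 stood at 1.74, 3.82 and 2.94 CPM at week 2 and passed the test narrowly (log2 fold change 1.66 ± 0.63, adjusted p = 0.04997). Duoxa2 stood at 0.299, 0.318 and 0.425 CPM at week 2, below every week 3 sample (log2 fold change 1.88 ± 0.67, adjusted p = 0.0334). Of 18 alternatives, Nos2 kept its call in 17, Duoxa2 in 9 and Duox2 in 8, and Saa1 kept it in 10 of 17. With week 3 reduced to the 1 sample of the female pattern, none of the 6 passed. In the duodenum none of the 6 passed over the same step with edgeR, where 18.3% of genes did. None of the 6 had an unadjusted p under 0.05 there either, a level met by 6399 of the 21986 genes.

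From day 0 to week 4 as a whole, all 6 genes rose in the ileum and the same 4 as before rose in the duodenum, where 21.5% and 20.4% of all genes rose. Saa2 counts among the 6 although it passed the filter on low counts only through the week 4 ileum and so had to differ. Ileal Nos2 went from 0.513 ± 0.135 CPM (SD, n = 3) at day 0 to 229.9 ± 114 CPM at week 4. Ileal Duox2 went from 0.779 ± 0.440 to 515 ± 316 CPM and ileal Duoxa2 from 0.183 ± 0.0562 to 90.7 ± 45.1 CPM. Ileal Saa1 went from 0.0913 ± 0.0810 to 108 ± 82.3 CPM, while Saa3 moved only from 0.566 ± 0.261 to 2.04 ± 1.05 CPM. Over this span ileal Saa3 (adjusted p = 0.0400) kept its call in 10 of 18 alternatives and had an adjusted p of 0.174 without ileum week 4 sample 1, of 0.141 without ileum day 0 sample 2, and of 0.0534 with the replicate number as a block. Ileal Saa2 lost its call with DESeq2 (adjusted p = 0.526). Without duodenum sample 2 of week 4, duodenal Saa1 was at 0.71 on the log2 scale (adjusted p = 0.796) and duodenal Nos2 at 2.20 in place of 5.79, still called. An effect of age anywhere in the series was called for all 6 genes in the ileum and for 4 in the duodenum, where 58.7% and 67.4% of all genes had one. The 6 of the ileum again include Saa2, which had to differ because of the filter.

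Ileum exceeded duodenum for most of the 6 genes, and for Nos2 this held at every age. At all 8 ages each ileum sample had more Nos2 than each duodenum sample of that age, an ordering met by 0.7% of the genes tested. The duodenal values were small: from day 4 to week 3 no duodenum sample held more than 6 counts of Nos2, at most 0.181 CPM, while ileum samples of those ages ran from 0.44 to 9.51 CPM. Duox2 was higher without overlap at 6 ages, Duoxa2 and Saa1 at 5 each, and Saa2 and Saa3 at 1 each. For Duox2 and Duoxa2 these ages include day 6, again without the samples numbered 3. In the order of the ages, 13.2%, 19.5%, 11.6%, 36.8%, 26.1%, 24.7%, 16.3% and 18.5% of all genes met that ordering.

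By test the regions differed for few of the 6 genes before weaning. None was called at day 0, day 2, day 6 or week 2, where 6.1%, 8.01%, 35.3% and 22.4% of all genes were. At an unadjusted p under 0.05, Nos2 passed at day 6 and Duox2 and Saa1 at week 2, and DESeq2 called 2 of the 6 at each of those ages. Nos2 was called at day 4 (log2 difference 3.94 ± 1.20, adjusted p = 0.0148), where 11.6% of all genes were higher in the ileum. Duox2 and Saa1 were called at day 8 (1.88 ± 0.66 and 4.74 ± 1.65, adjusted p = 0.0230 and 0.0235), where 17.1% of all genes were higher in the ileum. At week 3 Nos2, Duox2 and Duoxa2 were called, by 6.49 ± 1.13, 3.40 ± 0.71 and 2.30 ± 0.68 on the log2 scale, where 7.28% of all genes were higher in the ileum. With the week 3 sample of the female pattern alone none of those 3 passed. At week 4 all but Saa3 were called, where 14.5% of all genes were higher in the ileum. Saa2 counts among these 5 although it passed the filter only through the week 4 ileum, and its call (adjusted p = 0.0358) held in 2 of 5 alternatives. It was lost with DESeq2 (0.753), without a filter on low counts (0.0680) and with age and number as a replicate block (0.0635).

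At week 4 the gap between regions was widest for Saa1. Its mean was 209.5-fold higher in the ileum (log2 difference 7.67 ± 0.81, adjusted p = 1.15e-07). Nos2 was 16.1-fold, Duoxa2 9.77-fold and Duox2 8.79-fold higher in the ileum, with log2 differences of 4.00 ± 0.76, 3.29 ± 0.54 and 3.14 ± 0.62 (adjusted p = 0.00031, 4e-05 and 0.000463). Duodenum sample 2 sets much of the size of these gaps: without it the log2 differences were 7.60 for Nos2, 5.35 for Duoxa2, 5.22 for Duox2 and 11.59 for Saa1, all called. No week 4 duodenum sample reached the level of any week 4 ileum sample for these 4 genes. That includes ileum sample 1, the one low in Fabp6. Saa3 overlapped between the regions, and its call at week 4 changed only without duodenum sample 2 (adjusted p = 0.0345, against 0.265 with it).

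Whether the rise from week 3 to week 4 itself differed between the regions was tested as an interaction. None of the 6 genes passed in edgeR, where 1.18% of all genes did. None had an unadjusted p under 0.05 either, a level met by 3091 of the 21986 genes. The difference of the log2 changes, ileum minus duodenum, was -2.49 ± 1.45 for Nos2, -0.27 ± 0.88 for Duox2, 0.98 ± 0.88 for Duoxa2, 6.89 ± 3.79 for Saa1 and 1.38 ± 1.05 for Saa3. These errors are wide, and a p that misses the threshold does not show that the regions changed alike. Without duodenum sample 2, Duoxa2 passed (3.04, adjusted p = 0.00497). Without that sample and ileum sample 1 together, Duoxa2 and Saa1 passed (3.09 and 11.21, adjusted p = 0.00223 and 0.0228). The change from week 2 to week 3 did not differ between regions by this test for any of the 6, where 1.38% of all genes passed.

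**Figure D4:**
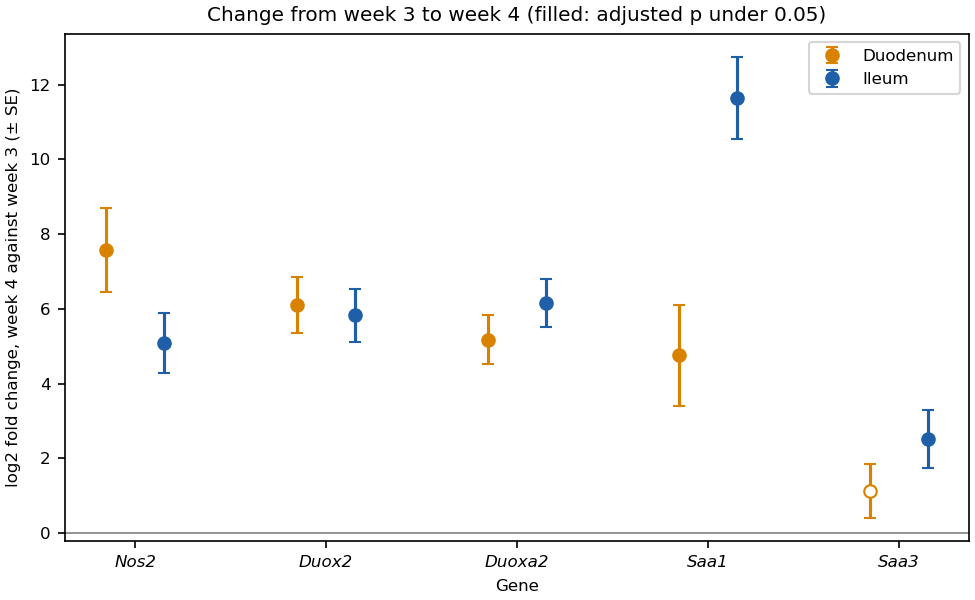
Fitted log2 fold change from week 3 to week 4 (vertical axis, ± SE) for 5 genes (horizontal axis) in duodenum and ileum; filled points passed the edgeR test. Saa1 in the ileum is highest at 11.64, Saa3 in the duodenum at 1.13 is the single open point, and Saa2 is not drawn because its week 3 counts were 0.

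Levels of different genes can be compared only per length of transcript. Divided by the kilobases of its principal transcript, Saa1 had 177 ± 135 CPM per kb (SD, n = 3) in the week 4 ileum. Duox2 had 89.6 ± 55.0, Nos2 67.1 ± 33.1 and Duoxa2 56.9 ± 28.4 CPM per kb. These 4 overlapped across samples, so their order is not firm. Saa3 at 3.67 ± 1.88 and Saa2 at 0.758 ± 0.429 CPM per kb were below the 4 and did not overlap each other. In the week 4 duodenum Duox2 led with a median of 2.88 CPM per kb, followed by Duoxa2 at 1.40, Saa3 at 1.27, Nos2 at 0.526, Saa1 at 0.116 and Saa2 at 0.0853. The duodenal samples overlapped among 5 of the genes, and Saa2 lay below all samples of each gene but Saa1.

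The genes whose pattern over the 16 groups was most like each of the 6 were ranked by Pearson correlation of log2(mean CPM + 0.1), among 12545 genes. Nos2 was followed most closely by Usp35, Camk4, Socs3, Casp8 and Hivep2 (0.94 to 0.92). Socs3, a feedback inhibitor of cytokine signalling, averaged 105 CPM in the week 4 ileum and Casp8, a protease of cell death, 145 CPM. Duox2 and Duoxa2 both had Reg3g, an antibacterial lectin of the epithelium, as second (0.93 and 0.95), with immunoglobulin and leukocyte genes around it: Igkv10-96, Rinl, Ptprcap and Selplg for Duox2 and Ighg2b, Igkv10-96, Selplg and Jchain for Duoxa2. Saa1 was most like Tat, Igkv10-96, Ighg2b, Cnr2 and Gm37567 (0.93 to 0.90). For Saa3 the likeness was lower after Gm3336 (0.91), with Gsr, Gmds, Cemip2 and Pdia5 at 0.83 to 0.82. Saa2 never reached a group mean of 1 CPM and was not ranked.

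Other genes of the same defences were read from 8 lists, for week 4 against week 3. The median log2 fold change of all genes tested was 0 in the ileum and -0.04 in the duodenum, where 7.81% and 4.96% of genes fell. Of 15 nitric oxide and arginine genes, none rose and 3 fell in the ileum, with a median of -0.28. Those were Ass1 and Asl, which rebuild arginine from citrulline, and Ddah1, which breaks down the natural inhibitors of nitric oxide synthases. Ileal Ass1 went from 35.4, 14.5 and 11.1 CPM at week 3 to 2.74, 5.12 and 4.74 CPM at week 4 (log2 fold change -2.27 ± 0.30, adjusted p = 5.88e-07), with no overlap. In the duodenum 1 of the 15 rose and 3 fell, among them Ass1 at -2.45 ± 0.29.

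Of 15 NADPH oxidase and peroxide genes tested, 10 rose and 1 fell in the ileum and 4 rose and 1 fell in the duodenum, with medians of 1.34 and 0.67. Duoxa1, which overlaps Duoxa2 on the opposite strand, stood at 4.25, 5.74 and 3.14 CPM in the week 4 ileum against 0.240, 0.0965 and 0 CPM at week 3 (log2 fold change 5.19 ± 0.81, adjusted p = 8.69e-06). How much of that came from Duoxa2 reads was not tested. Duox1, the partner of Duoxa1, stayed at 0.267 to 0.583 CPM in the week 4 ileum and did not pass the test there (1.28 ± 0.80, adjusted p = 0.310). Nox1, another epithelial oxidase, rose by 2.20 ± 0.61 in the ileum, and Ncf1, an oxidase subunit of phagocytes, by 3.01 ± 0.49.

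Of 11 acute phase genes and serum amyloid A relatives tested, with medians of 0.69 in the ileum and -0.61 in the duodenum, 2 rose in the ileum: Lbp, which binds lipopolysaccharide (1.75 ± 0.43, adjusted p = 0.00303), and Lcn2, an iron-trapping lipocalin at 0.267 to 0.807 CPM (1.90 ± 0.67, adjusted p = 0.0486). Lcn2 kept its call in 8 of 19 alternatives. None of the 11 passed in the duodenum. Saa4, the constitutive liver member of the family, had at most 1 count in any week 3 or week 4 sample.

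Epithelial genes that respond to interleukin 22 rose in both regions, 11 of 19 in the ileum with 1 that fell, and 10 of 19 in the duodenum. Reg3g went from 33.3, 62.3 and 53.2 CPM to 6316, 9039 and 5979 CPM in the ileum (log2 fold change 7.16 ± 0.64, adjusted p = 3.8e-10). In the duodenum it went from 12.5, 16.1 and 17.1 CPM to 457, 2615 and 1155 CPM (6.53 ± 0.62, adjusted p = 1.4e-09), with sample 2 again the highest. Reg3b, its close relative, rose by 6.59 ± 0.74 and 6.25 ± 0.73. Retnlb, a bactericidal protein of goblet cells, had 0 counts in all week 3 ileum samples and 34, 101 and 15 counts at week 4.

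Few upstream interleukin and receptor genes passed the test. Of 14 tested, 2 rose and 1 fell in each region. In the ileum the rising ones were Il22ra2, the soluble decoy receptor of interleukin 22 (3.46 ± 0.86), and Tnf (2.95 ± 0.78), and Ifngr1 fell by 0.42 (SE 0.14). The other 7 of the 21 listed were too low to be tested. Of 20 NF-kappa B targets and regulators, 10 rose and none fell in the ileum, with a median of 1.00, and 6 rose in the duodenum. Icam1, Zc3h12a and Ccl20 rose in the ileum by 2.03 ± 0.30, 1.99 ± 0.29 and 1.75 ± 0.34.

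Interferon gamma targets were the most complete list. All 20 rose in the ileum, with a median of 2.74, and 16 of 20 rose in the duodenum, with a median of 2.13. Gbp6 and Igtp, both GTPases of cell-intrinsic immunity, rose by 4.82 ± 0.37 and 4.82 ± 0.32 in the ileum and by 4.40 ± 0.35 and 4.95 ± 0.30 in the duodenum. Over the step before, from week 2 to week 3, none of the 20 rose and 10 fell in each region, where 13.9% and 10.6% of all genes fell. Nos2, which interferon gamma also induces, rose over that step in the ileum, and whether interferon gamma had a part in that was not tested. Of 16 microbial sensing genes, 7 rose and 1 fell in the ileum and 1 rose and 1 fell in the duodenum. Tlr9 and Tlr2 rose in the ileum by 3.41 ± 0.59 and 2.14 ± 0.34, and Tlr5, the flagellin receptor, fell by 2.51 (SE 0.31). Without the 2 week 4 libraries that stood apart, all 20 interferon gamma targets, 11 of the interleukin 22 list and 10 of the NF-kappa B list rose in the ileum. The interleukin list then had 3 that rose and 3 that fell there, and the acute phase list 1 that rose.

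**Figure D5:**
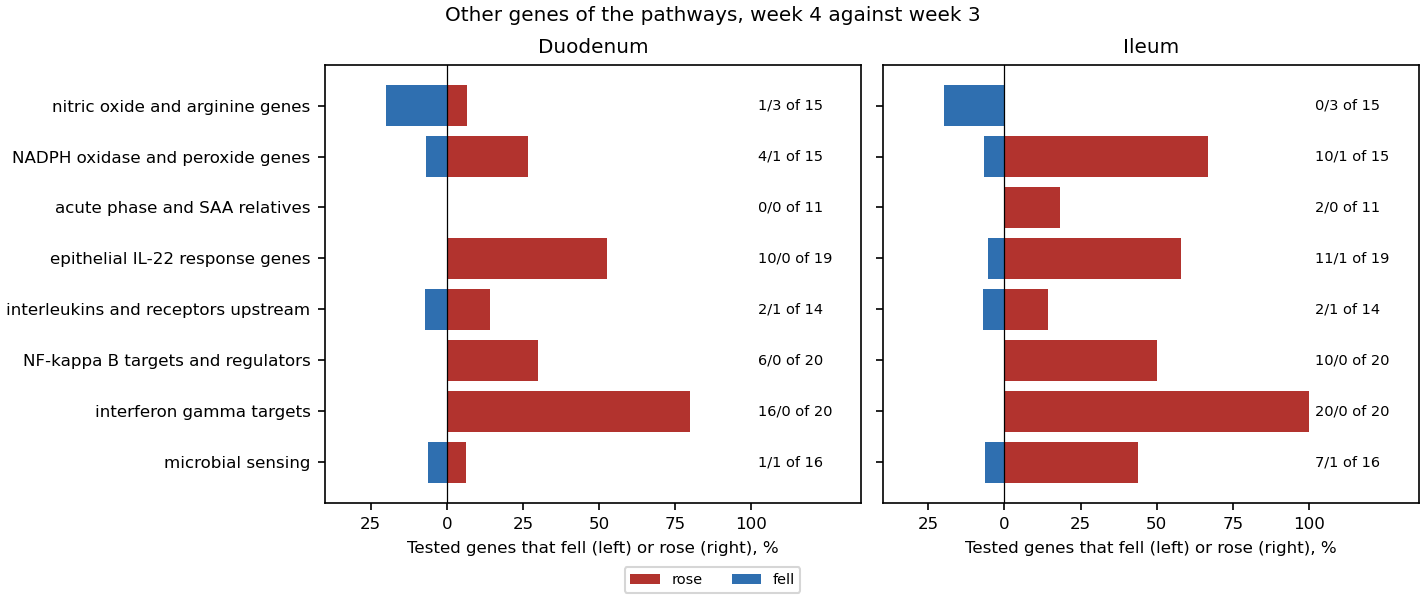
Share of the tested genes of each list (rows) that rose or fell from week 3 to week 4 (horizontal axis, %) in duodenum and ileum, with counts as rose/fell of tested at the right. Interferon gamma targets reach 20 of 20 in the ileum and 16 of 20 in the duodenum, and the nitric oxide and arginine list has 3 falls in each region.

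Markers of other cell types were summed beside these results. The 5 epithelial markers totalled 8380 to 11126 CPM in the week 3 ileum and 6763 to 10818 CPM in the week 4 ileum, overlapping ranges. The 7 B cell follicle markers, all detected, totalled 3.92 to 13.6 CPM in the week 3 ileum and 80.3 to 291 CPM in the week 4 ileum, and 3.67 to 4.29 against 29.0 to 34.0 CPM in the duodenum. The 8 markers of T cells and innate lymphoid cells totalled 32.1 to 61.3 CPM and then 73.4 to 91.4 CPM in the ileum. The 5 mesothelium markers totalled 12.5 to 16.1 CPM in the week 3 ileum and 22.4 to 31.2 CPM in the week 4 ileum, and 3.83 to 4.73 against 3.70 to 14.98 CPM in the duodenum. The 8 markers of large intestine epithelium totalled 38.1 to 43.3 CPM and then 48.9 to 62.7 CPM in the ileum, and 53.9 to 149.5 against 43.7 to 95.6 CPM in the duodenum. Mesothelial and large intestine marker RNA in the ileum, and lymphoid marker RNA in both regions, was therefore higher at week 4 beside the 6 genes, and its part in the rise of those genes was not tested. B cell follicle markers were highest in ileum sample 3, which had the least Nos2, Duox2, Duoxa2, Saa2 and Saa3 of the 3, while Saa1 was lowest in sample 1. An order over 3 samples does not test where the RNA came from.

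Macrophages, neutrophils, fat cells and hepatocytes can also make some of these 6 products. The 6 macrophage markers totalled 30.6 to 34.9 CPM in the week 3 ileum and 20.04 to 23.4 CPM in the week 4 ileum. The 6 fat cell markers totalled 54.3 to 56.5 CPM and then 19.7 to 44.0 CPM in the ileum. Of the 6, 4, 4 and 5 had counts in week 3 ileum samples 1, 2 and 3, and 4, 6 and 6 at week 4. The fall of the sum therefore does not mean that each fat cell marker fell. The 8 neutrophil markers totalled 3.38 to 11.5 CPM at week 3 and 4.20 to 13.8 CPM at week 4 in the ileum. Of the 8, 3, 7 and 7 had counts in week 4 ileum samples 1, 2 and 3. The 6 hepatocyte markers totalled 4.77 to 6.56 CPM and then 2.61 to 3.74 CPM in the ileum. Of the 6, 4, 5 and 5 had counts in week 4 ileum samples 1, 2 and 3, and Alb, the albumin gene, was at 0 to 0.0668 CPM there. Whether any of these cell types supplied RNA of the 6 genes was not tested. Sex differed between the ages as well. With a sex index from Xist and Ddx3y in the model no call of the 6 genes over this step changed. Every week 4 sample had the female pattern, so that model cannot fully separate sex from age here.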

How the data were processed

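Bulk RNA sequencing of whole-thickness duodenum and ileum was used, 48 samples of which 46 entered the fits. STAR 2.6.1d, Salmon 0.14.2, DESeq2 1.30.1 and the build mm10 are named in the submitters' processing notes, with no roles. The authors deposited estimated counts per gene, already whole numbers, and tables of normalized signal for 40 of the samples, without day 4 and without the day 6 samples numbered 3. That signal is the deposited count divided by 1 factor per sample. Strand use in counting is not given in the sources used here.

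Genes were kept by filterByExpr over 16 groups (21986 genes), scaled by TMM and fitted with edgeR 4.0.16 (robust quasi-likelihood, R 4.3.3). Benjamini-Hochberg adjustment ran over all genes tested, and a gene was called under 0.05. The SE of a log2 fold change was taken as its size over √F. Levels are CPM, the counts of a gene relative to the TMM-scaled library size. The fit was tested on simulated data. Alternatives used DESeq2 1.42.0, limma 3.58.1 on log2(signal + 0.1) and log2(signal + 1), other filters, scalings and sample sets. Counting intervals (95%) and the floor of 3 counts cover counting error only.

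The members and lists were chosen with earlier results of these data known. Beyond the 6 genes, the text names the 3 genes of each list with the largest called change from week 3 to week 4 in the ileum, plus Duox1, Duoxa1 and Saa4, genes of region and sex, and the 5 genes most like each member, among genes with a symbol and a highest group mean of 5 CPM or more.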

Additional observations from a re-analysis of the deposited data

How the results depend on the processing

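No called value of the 6 genes changed sign under any alternative. The ileal calls of Nos2, Duox2, Duoxa2 and Saa1 from week 3 to week 4 were kept in 20 of 20 alternatives. Depth limits Saa2, with at most 26 counts in a library, and Nos2 and Saa1 in the duodenum before week 4. Over the alternatives, 5 to 10 NADPH oxidase genes rose in the ileum from week 3 to week 4 and 0 to 8 in the duodenum, against 19 to 20 and 14 to 17 interferon gamma targets. The cause of the changes that follow was not tested, except that fits on fewer samples hold less data.

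When the model was restricted to the groups being compared, the number of the 6 genes called in the duodenum was 2 from day 0 to day 2, 1 from day 2 to day 8, 1 from day 8 to week 2, 0 from week 3 to week 4 and 2 from day 0 to week 4. In the ileum it was 1 from day 2 to day 8 and 1 from day 8 to week 2. Between regions it was 2 at day 2, 2 at day 6, 3 at week 2 and 1 at week 4. From day 2 to day 8, DESeq2, limma with either pseudocount, a mean count of at least 10 and leaving out day 4 each called 1 gene in the duodenum, and limma with either pseudocount called 1 in the ileum. From week 2 to week 3 in the ileum, 1 gene was called without a filter, 2 without day 4, and 0 with the Xist-only week 3 sample. Between regions, DESeq2 called 3 at day 4, 2 at day 6 and 2 at week 2, a mean count of at least 10 called 1 at day 6 and 1 at week 2, no filter called 1 at day 8, and the Xist-only week 3 sample left 0 at week 3. Without both week 4 libraries that stood apart, 2 genes passed the interaction from week 3 to week 4.

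Leaving out 1 sample at a time gave 1 to 2 calls from week 2 to week 3 in the ileum, 3 to 4 and 4 to 6 from week 3 to week 4 in duodenum and ileum, 0 to 1 between regions at day 4, 0 to 2 at day 8, 2 to 3 at week 3, 4 to 5 at week 4, and 0 to 1 for the interaction from week 3 to week 4. Nos2 at day 4 lost its call without duodenum sample 2, Duox2 at day 8 without duodenum sample 1 or 3 or ileum sample 3, and Saa1 at day 8 without duodenum sample 2 or 3 or ileum sample 2.

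The labels do not say whether same-numbered samples of the 2 regions came from the same animal, and the main fit did not pair them. The mean correlation of deviations was 0.0760 over 23 same-numbered pairs, with 9 over 0.1. Over 44 differently numbered pairs it was -0.0394, with 6 over 0.1. With the number as a replicate block within region, 1 gene was called from day 2 to day 8 in the duodenum. Saa3 lost its call from day 0 to week 4 in the ileum (adjusted p = 0.0534). Of 84 outcomes, called or not, 82 were as before. With age and number as the replicate block, 4 genes differed between regions at day 4, 2 at day 6 and 2 at week 2, and Saa2 lost its call at week 4 (adjusted p = 0.0635).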

Other observations

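The day 6 samples numbered 3 entered no comparison. The one labelled duodenum had 0.832 CPM of Nos2, 2.53 CPM of Duox2, 0.258 CPM of Duoxa2, 0.230 CPM of Saa1 and 0.287 CPM of Saa3. The one labelled ileum had 0 counts of Nos2 and Saa1, 0.509 CPM of Duox2, 0.127 CPM of Duoxa2 and 0.636 CPM of Saa3. Saa2 had 0 counts in both. With all 48 samples in the model under their labels, 119 of 120 outcomes of a gene in a comparison, called or not, were as without them. The other 1 lost its call, and 24 more outcomes were not tested there. Most of these comparisons did not involve day 6.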
